A study of Mus musculus with 38 samples.

Results

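Unclassified enhancers that carried acetylation of histone H3 at lysine 27 (H3K27ac) both after depolarisation and in silenced neurons outnumbered each of the increasing, constant and decreasing classes of enhancers in this map of cultured mouse cortical neurons. The study lists 11830 distal candidate enhancers, positions bound by CBP and marked by H3K4me1. Their label credits them to Kim et al., and no CBP or H3K4me1 library is among the samples. The study sorts part of them by H3K27ac into 1468 increasing, 800 constant, 738 decreasing and 1886 unmarked sites. The sites described here, called members, are in none of these 4 classes and lie inside a peak of both merged H3K27ac lists, KCl and unstimulated. They number 2774, which is 23.4% of the 11830 candidates, 40.0% of the 6938 unclassified candidates and 65.6% of the 4231 candidates that lie in both H3K27ac lists. Of the other unclassified sites, 414 lay in the KCl list alone, 363 in the unstimulated list alone and 3387 in neither. Membership was therefore decided by H3K27ac, so H3K27ac itself is described at the members and no difference in H3K27ac was tested.

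The study asked which enhancers respond to neuronal activity and where the AP-1 proteins bind among them, using chromatin immunoprecipitation followed by sequencing (ChIP-seq). Cortical neurons of C57BL/6 embryos (embryonic day 16.5) were used at day 7 in vitro. All cultures had been silenced overnight with TTX (1 µM), which blocks sodium channels, and DL-AP5 (100 µM), which blocks NMDA receptors. The KCl groups then received 2 h of depolarisation, and the unstimulated groups stayed silenced. c-Fos was mapped in KCl and unstimulated neurons with antibodies sc52 and sc7202, FosB with sc48 (biological samples 3 and 4 for all these) and JunB with sc46 (biological sample 4 only). In biological samples 5 and 6, all given KCl, c-Fos (sc52) was mapped after c-Fos shRNA and after control shRNA, and FosB after FosB shRNA and after control shRNA. H3K27ac was mapped in biological samples 1 and 2, and the lists used here merge them, so H3K27ac has no replicate. The 38 samples comprised 22 AP-1, 4 H3K27ac and 12 input DNA libraries, and the input DNA is not analysed here. The AP-1 lists held 557 to 28885 peaks, and the H3K27ac lists held 29418 peaks after KCl and 30239 without stimulation. Sequencing depth is unknown because the lists hold peaks and not reads, so any difference in the number of peaks includes a difference in depth. Positions are those of genome build mm9. No gene, exon or sequence was assigned to a site, since no mm9 genome or annotation was used, and the labelled cell type could not be checked against marker genes.

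H3K27ac is laid down by the acetyltransferases CBP and p300 and marks active enhancers and promoters, whereas H3K4me1 marks enhancers whether active or not. Fos proteins (c-Fos, FosB) bind DNA only as dimers with Jun proteins such as JunB, and these dimers are the transcription factor AP-1. In neurons the Fos and Jun genes are among the early genes that membrane depolarisation induces.

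H3K27ac at the members was broad and changed little in extent between the conditions. The 2774 members lay in 2536 separate peaks after KCl and in 2537 without stimulation, and 2726 of them (98.3%) lay in peaks of both distal lists. The peak that held a member had a median width of 2787 bp after KCl and 2776 bp without stimulation. The peak score of the authors' lists, which rises with the negative log10 of the p-value so that 50 stands for 1e-05 and 100 for 1e-10, had a median of 363.64 after KCl and 345.72 without stimulation. Scores depend on the depth of each list, and scores of different lists are given only as descriptions. Members sat near the middle of their KCl peak, at a median distance of 233 bp. Because the cultures were mapped whole, the share of cells with the mark and its amount per cell cannot be told apart.

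The width of the holding peak, KCl over unstimulated, gave a median log2 ratio of 0.02 (SD over members 0.41), with 10% of members at or under -0.41 and 10% at or over 0.45. A log2 ratio within 0.5 of zero was found for 2353 members (84.8%). Of the remainder, 212 lay in a peak that was wider after KCl beyond that bound and 209 in a narrower one. The 800 constant enhancers, all in both lists, were spread less, with an SD of 0.31 and 91% within the bound. The 409 increasing enhancers that lie in both lists had a median log2 ratio of 0.53, and the 248 decreasing enhancers in both lists had -0.53. By width, the members were thus centred where the constant class is centred and reached into the ranges of both changing classes. The rule left out all sites of both changing classes, so this centre may follow from the choice of members.

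**Figure D1:**
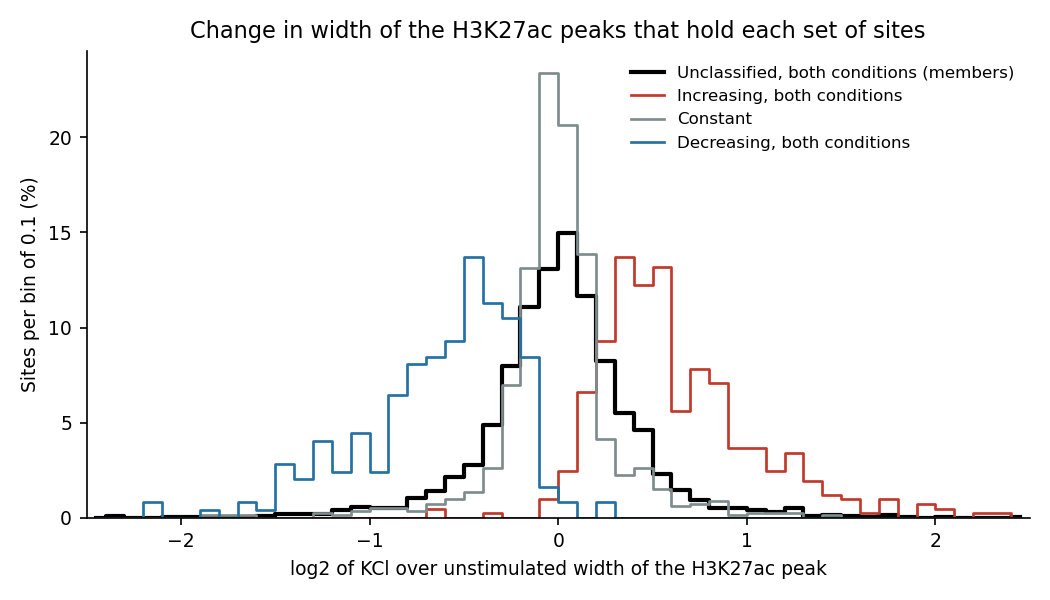
Distribution of the log2 ratio of H3K27ac peak width, KCl over unstimulated (x axis), as the percent of sites in each bin of 0.1 (y axis), for members and for the increasing, constant and decreasing enhancers that lie in both H3K27ac lists. The members and the constant class peak near 0, and the increasing and decreasing classes have medians of 0.53 and -0.53.

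At its edge the rule turned on a few base pairs. The members nearest to a peak edge lay 12 bp (chr4:82880760), 13 bp (chr16:28492020) and 18 bp (chr13:54024600) inside it. The nearest unclassified sites left out lay 7 bp (chr16:21607250) and 9 bp (chr4:23529770) outside a KCl peak and 2 bp (chr11:120105075) outside an unstimulated peak. The weakest holding peaks had scores of 50.05 after KCl (chr16:56064645, 65.5 without stimulation) and 50.12 without stimulation (chr1:166832630, 92.89 after KCl).

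Members were found on every chromosome with candidates, from 68 to 215 per autosome and 9 on X, and made up 20.4% to 26.4% of the candidates of each chromosome. Most were the only member of their KCl peak (2310 of 2774). A further 215 peaks held 2 members, 10 held 3, and 1 peak of 5361 bp held 4 (chr16:97507001-97512361, KCl score 2460.84). Measured to the next candidate of any kind, the median distance was 15152.5 bp for members and 30075 bp for the 3387 unclassified sites outside H3K27ac peaks, and 12.2% of members against 3.48% of those sites had another candidate within 1 kb. Because neighbouring sites can share a peak, they are not independent, and all tests were made over libraries.

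c-Fos was present at 28.8% of the members on average after KCl, and in silenced neurons few members lay in a called c-Fos peak. With antibody sc52, a c-Fos peak covered 883 members (31.8%) in biological sample 3 and 323 (11.6%) in sample 4 after KCl, against 38 (1.37%) and 16 (0.577%) in the unstimulated libraries. With sc7202, the KCl libraries covered 1201 members (43.3%) and 787 (28.4%), against 11 (0.397%) and 0 in the unstimulated libraries. That count of 0 of 2774 allows a share of up to 0.108%, and such limits and intervals cover counting error only. The 4 KCl libraries did not overlap with the 4 unstimulated libraries.

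The mean was 28.8% ± 13.1 after KCl and 0.586% ± 0.576 without stimulation (SD, n = 4 libraries each), a difference of 28.2 percentage points and a 49.1-fold ratio of means. The exact two-sided permutation test over libraries gave p = 0.0286, the smallest value that 4 against 4 libraries allow. Taken within the 4 pairs that share a biological sample and an antibody, the same difference gave p = 0.125 in an exact sign-flip permutation test, again the smallest possible and above 0.05. Both tests count libraries and not cultures. Each condition has only 2 cultures, biological samples 3 and 4, because both antibodies were used on each. Counted as 2 against 2 cultures, an exact permutation test could not go below 0.333. The p-values of this contrast therefore do not test a difference between cultures. Over all 11830 candidates the corresponding means were 32.8% ± 13.8 and 0.856% ± 0.902, so the contrast was not particular to the members. List length moved with it: cut to the 557 best peaks of each library, the difference was 1.31 points (p = 0.0286 in the same exact test), and with a score of at least 100 it was 15.6 points.

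FosB and JunB gave the same direction with fewer libraries. FosB covered 334 members (12%) and 246 (8.87%) after KCl, against 5 (0.180%) and 91 (3.28%) without stimulation, in biological samples 3 and 4. The KCl values lay above the unstimulated values, with means of 10.5% ± 2.24 and 1.73% ± 2.19 (SD, n = 2 each) and a difference of 8.72 points. Over all candidates the means were 12.1% after KCl and 1.75% without stimulation, so this contrast too was not particular to the members. An exact permutation test gave p = 0.333, the smallest that 2 against 2 libraries allow. Without biological sample 3 the difference was 5.59 points, and with a score of at least 100 it was 4.47 points. With lists cut to the 2041 best peaks it was 2.79 points, and with the 2 control shRNA libraries added to the KCl group it was 18.1 points (exact permutation p = 0.133). JunB covered 1019 members (36.7%) after KCl and 90 (3.24%) without stimulation in 1 library each, a difference of 33.5 points that has no replicate check, and the values over all candidates were 41.0% and 5.14%. With lists cut to the 3126 best peaks it was 5.59 points, and with a score of at least 100 it was 16.1 points.

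**Figure D2:**
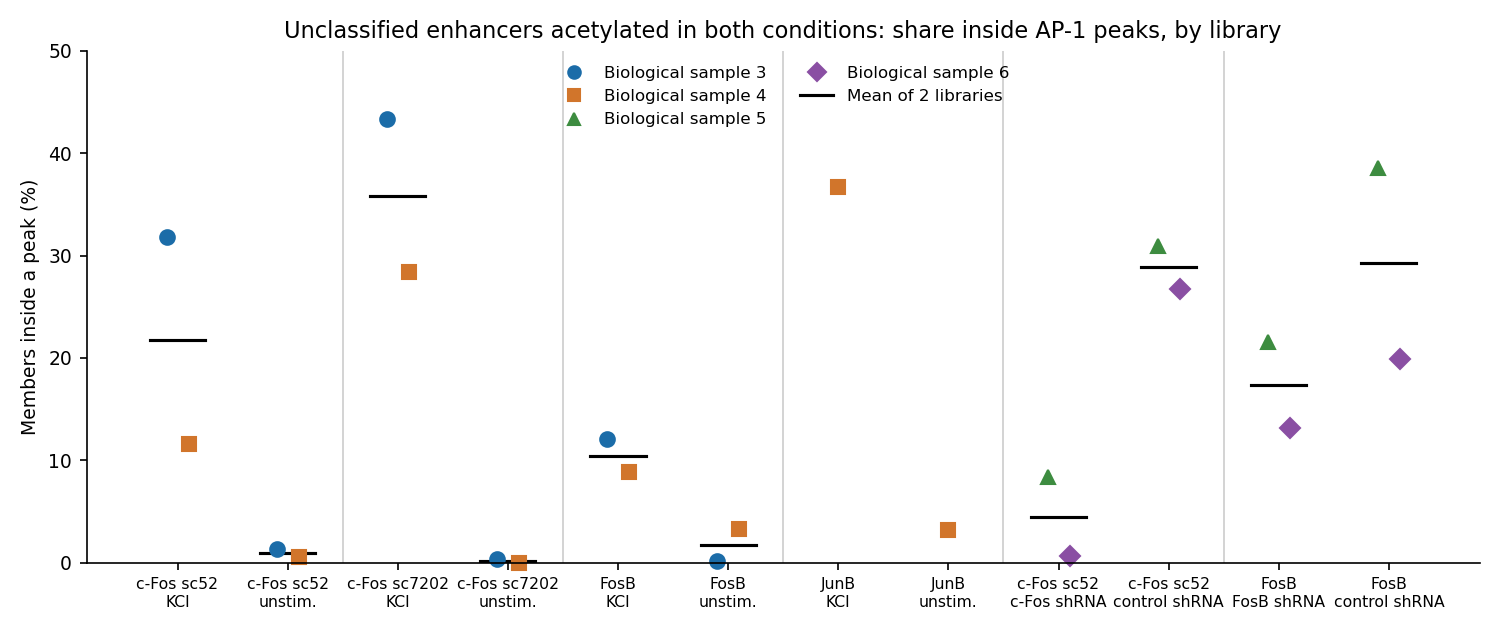
Percent of the 2774 members inside an AP-1 peak (y axis) in each of the 22 libraries, grouped by antibody and condition (x axis), with the symbol giving the biological sample and the bar the mean of 2 libraries. All KCl libraries without knockdown lie at or above 8.87%, and all unstimulated libraries lie at or below 3.28%.

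Per enhancer, c-Fos after KCl ranged from no library to all of them. Counting the 4 libraries above and the 2 control shRNA libraries of KCl neurons, 1434 members (51.7%) lay in a c-Fos peak of at least 1 of 6 libraries, against 56.6% of all candidates. The other 1340 members (48.3%) lay in none. By number of libraries, 336 members were covered in 1, 244 in 2, 176 in 3, 196 in 4 and 234 in 5. In all 6 libraries, 248 members (8.94%) were covered, against 11% of all candidates. Both shares of members were thus somewhat under those of the candidates as a whole. The nearest position of the authors' combined c-Fos list was no more than 500 bp from 559 members (20.2%), against 26.3% of candidates. It was no more than 100 bp from 368 members (13.3%), against 19.8% of candidates.

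**Figure D3:**
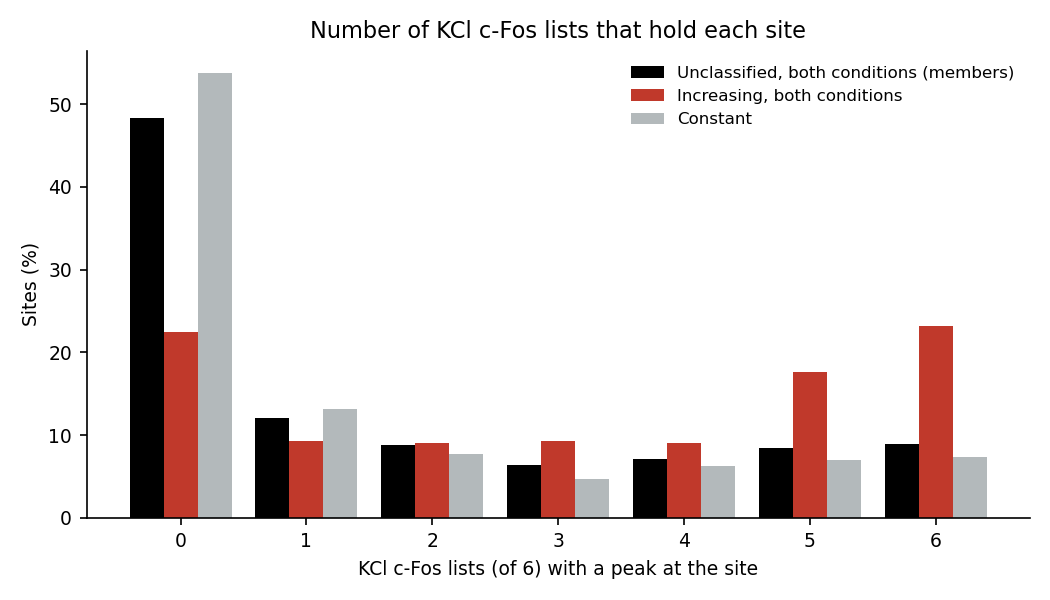
Percent of sites (y axis) by the number of the 6 KCl c-Fos libraries whose peaks hold the site (x axis), for members, increasing enhancers in both H3K27ac lists and constant enhancers. No library held 48.3% of members and 53.75% of constant enhancers, against 22.5% of increasing enhancers, and all 6 held 8.94%, 7.38% and 23.2%.

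Where c-Fos covered a member, it did so centrally and with peaks of middling rank. In the 6 KCl libraries the centre of the c-Fos peak lay at a median of 55.5 to 69 bp from the site, and median peak width was 671 to 945.5 bp. The median distance was 55.75 to 79.5 bp at constant, 56.75 to 74 bp at increasing and 43.5 to 74.75 bp at decreasing enhancers in both lists. At unclassified sites outside H3K27ac it was shorter, at 46 to 56 bp. Ranked by score from the top of its own list, the median peak at a member stood at 36.6% ± 5.98 of the list (SD over 6 libraries). The corresponding value was 29.3% at increasing, 37.4% at constant, 48.8% at decreasing enhancers in both lists and 36.6% at unclassified sites outside H3K27ac.

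Set beside the classed enhancers, the members had more c-Fos than constant and decreasing sites and less than increasing sites. Over the 6 KCl c-Fos libraries, members were covered at 28.8% ± 10.2 (SD), from 11.6% to 43.3%. Constant enhancers were covered at 24.5% ± 9.03. The difference within each library was 4.28 ± 1.37 points, between 1.64 and 5.31, and positive in 6 of 6. Decreasing enhancers in both lists were covered at 20.5% ± 8.71, and the members exceeded them by 8.31 ± 2.69 points in 6 of 6 libraries. Increasing enhancers in both lists were covered at 53.1% ± 13.4, above the members by more than the spread, since the difference of members minus increasing sites was -24.3 ± 3.80 points. The members were also under the unclassified sites outside H3K27ac peaks, which were covered at 34.6% ± 11.4, with a difference of -5.78 ± 2.04 points.

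Each of these 4 differences had the same sign in all 6 libraries and gave p = 0.03125 in an exact two-sided sign-flip permutation test, the smallest that 6 libraries allow, and 0.03125 after Benjamini-Hochberg adjustment over the 4. The 6 libraries came from 4 cultures, and averaged per culture the differences were 4.47, 8.80, -24.2 and -6.27 points in the same order, each with an exact permutation p of 0.125, the smallest for 4 units. The difference from the unclassified sites outside H3K27ac was -2.93 points with lists cut to the same length and -3.40 points with a score of at least 100. With the authors' combined c-Fos sites it was -8.99 points.

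Within the KCl H3K27ac list the median score was 363.64 at members, 632.06 at increasing, 374.775 at constant and 137.875 at decreasing sites, and c-Fos was therefore also compared at like KCl scores. Within the lowest, middle and highest terciles of KCl score, members exceeded constant enhancers in c-Fos coverage by 3.21, 6.82 and 2.90 points, with 6, 6 and 5 of 6 libraries positive. Against increasing enhancers the differences were -10.7, -17.7 and -30.3 points, and against decreasing enhancers 8.36, 6.34 and 7.74 points, the last with only 15 decreasing sites in the stratum. The direction of the means was thus the same at low, middle and high H3K27ac for all 3 classes.

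**Figure D4:**
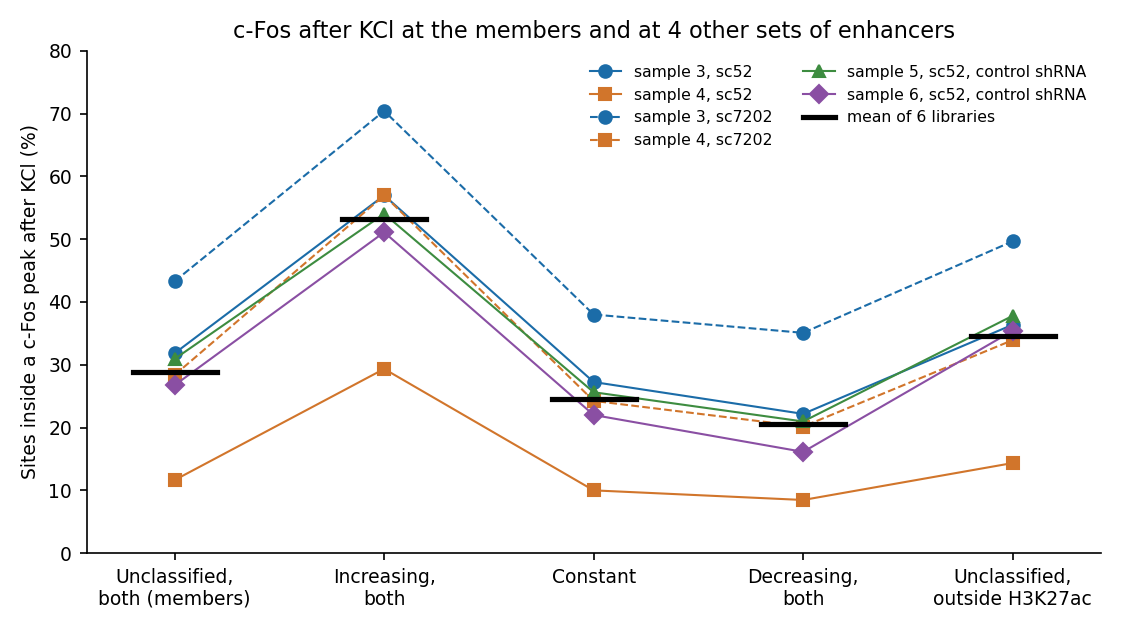
Percent of sites inside a c-Fos peak (y axis) in each of 6 KCl c-Fos libraries (lines) for members and 4 compared sets (x axis), with bars for the mean over libraries. Every line is highest at the increasing enhancers and has its lowest point at the decreasing enhancers, with the members above the constant class by 1.64 to 5.31 points.

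FosB and JunB also covered the members less than the increasing enhancers and more than the constant and decreasing ones. Over the 4 KCl FosB libraries (control shRNA included), members were covered at 19.8% ± 13.3, against 17.3% ± 12.3 of constant, 34.8% ± 17.5 of increasing, 15.6% ± 10.4 of decreasing and 23.8% ± 14.3 of the sites outside H3K27ac. The differences within a library averaged 2.53, -15.0, 4.22 and -3.95 points in that order and had the same sign in 4 of 4 libraries (exact permutation p = 0.125 each, the smallest for 4). At least 1 of 4 KCl FosB libraries covered 1185 members (42.7%), against 46.1% of all candidates, and all 4 covered 126 (4.54%), against 5.33%. JunB after KCl covered 36.7% of members, against 41.0% of candidates. It covered 30.5% of constant, 57.7% of increasing and 32.7% of decreasing enhancers in 1 library, so that constant sites were the lowest here and not decreasing sites as for c-Fos.

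Among the members themselves, c-Fos followed the change in H3K27ac width, which had been measured in other cultures. Members were ordered by the log2 ratio of KCl over unstimulated width, and the upper tercile (924 members, median 0.32) was compared with the lower tercile (924 members, median -0.28). In the upper tercile, c-Fos covered 39.8%, 17%, 50.1%, 38.0%, 40.0% and 35.3% of members, against 23.9%, 6.28%, 36.7%, 19.3%, 20.7% and 18.5% in the lower tercile, in sc52 of samples 3 and 4, sc7202 of samples 3 and 4, and control shRNA of samples 5 and 6. The upper tercile was higher in 6 of 6 libraries.

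The means were 36.7% in the upper tercile and 20.9% in the lower tercile, a difference of 15.8 ± 3.28 points (SD, n = 6 libraries, range 10.7 to 19.4). The exact sign-flip permutation test gave p = 0.03125, the smallest possible. Averaged per culture the difference was 16.4 points, with an exact permutation p of 0.125. Taken within terciles of KCl score, the difference was 15.0 points, and with the shift of score rank in place of width it was 13.6 points.

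In finer steps, mean c-Fos coverage was 22.4%, 21.2% and 19.3% in the lowest 3 deciles of width ratio, 24.8%, 28%, 30.02% and 32.4% in the next 4, and 30.7%, 38.1% and 41.3% in the highest 3. The steps were not even: the lowest 3 deciles did not rise, and the eighth decile was under the seventh. JunB after KCl covered 46.2% of the highest and 29.9% of the lowest decile, and FosB 26.9% and 15.0% (mean of 4 libraries). The highest decile, with a median log2 width ratio of 0.63, was still covered less by c-Fos than the 53.1% of the increasing enhancers, a comparison for which no test was made.

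**Figure D5:**
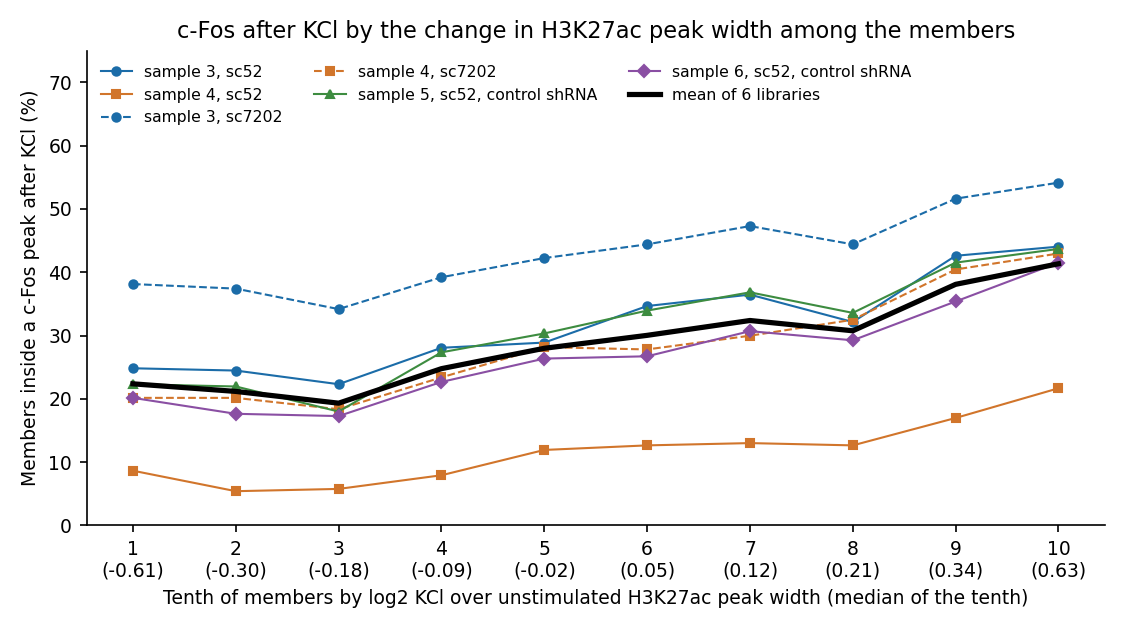
Percent of members inside a c-Fos peak after KCl (y axis) by decile of the log2 ratio of KCl over unstimulated H3K27ac peak width (x axis, median of each decile in brackets), for 6 libraries (thin lines) and their mean (thick line). The mean is 22.4% in the first decile and 41.3% in the last.

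Unstimulated AP-1 went the other way across the same terciles. Of 7 unstimulated libraries, 5 covered fewer members in the upper than in the lower tercile, and the other 2 were equal. JunB covered 14 members of the upper tercile and 40 of the lower tercile, and FosB of biological sample 4 covered 13 and 44. c-Fos with sc52 covered 5 and 17 in sample 3 and 3 and 7 in sample 4. These counts are small, and this contrast was not tested. The overall strength of H3K27ac, by contrast, gave no ordered series: mean KCl c-Fos coverage was 27.5% in the strongest, 30.3% in the middle and 28.7% in the weakest tercile by rank of the holding peaks.

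Some members shared their KCl H3K27ac peak with a classed enhancer. Of the 2774, 66 shared it with an increasing site, 109 with a constant site, 23 with a decreasing site and 3 with sites of several classes. Mean KCl c-Fos coverage was 37.9%, 31.3%, 29.7% and 0% in these groups and 28.5% at the 2573 members with no classed site in the peak. The group next to an increasing site had a median log2 width ratio of 0.41.

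Peaks of the AP-1 proteins coincided at the members about as often as at all candidates, or somewhat less often. In biological sample 4, where all 4 antibodies were used after KCl, 1579 members (56.9%) lay in no peak, 327 in a JunB peak only, 292 in sc7202 and JunB, 154 in both c-Fos antibodies and JunB, and 134 (4.83%) in all 4. These combinations were counted at the members only, so they cannot be set against all candidates. Of the members with FosB in that culture, 92.3% also had JunB, against 93.3% of all candidates with FosB, whereas 22.3% of the members with JunB also had FosB, against 23.3% of candidates. JunB was found at 81.1% of sc7202 members, against 82.5% of sc7202 candidates, and sc7202 at 62.6% of JunB members, against 66.5% of JunB candidates. In the same culture sc52 was found at 54.9% of FosB members, against 60.9% of FosB candidates. JunB was slightly more frequent at sc52 members (95.4%) than at sc52 candidates (94.8%). Lists of very different length limit such shares, since the FosB list of that culture held 4899 peaks and the JunB list 19346. Of the 2 c-Fos antibodies, sc7202 was found at 92.0% of sc52 members in biological sample 3 and 90.1% in sample 4, against 92.8% and 91.2% of sc52 candidates. Of the 248 members with c-Fos in all 6 libraries, 247 lay in a FosB peak of at least 1 of 4 KCl libraries, 245 in the JunB list and 202 within 500 bp of a combined c-Fos site. The same overlaps were not counted at the 1307 candidates with c-Fos in all 6 libraries, so they are not shown to be particular to the members.

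At least 1 of the 11 KCl AP-1 libraries without knockdown covered 1669 members (60.2%), against 64.2% of candidates. All 11 covered 102 members (3.68%), against 4.27% of candidates. In none of the 22 AP-1 libraries lay 1021 members (36.8%), against 33% of candidates and 41.4% of constant enhancers. H3K27ac without any AP-1 peak in these lists was thus found at 36.8% of the members.

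The knockdown libraries check the c-Fos and FosB signals at the members. c-Fos covered 232 members (8.36%) in sample 5 and 17 (0.613%) in sample 6 after c-Fos shRNA, against 858 (30.9%) and 742 (26.7%) after control shRNA. Of the members with c-Fos under control shRNA, 188 (21.9%, Wilson 95% interval 19.3% to 24.8%) kept it under c-Fos shRNA in sample 5, and 15 (2.02%, 1.23% to 3.31%) in sample 6. Over all candidates the shares kept were 15.5% (14.4% to 16.6%) in sample 5 and 1.07% (0.791% to 1.44%) in sample 6, a difference from the members that was not tested. In sample 5, constant enhancers kept 19.5%, increasing and decreasing enhancers in both lists 23.1% each, and unclassified sites outside H3K27ac 11.9%. In sample 6 these shares were 1.14%, 0.478%, 0% and 0.917% in that order. The means were 4.49% ± 5.48 after c-Fos shRNA and 28.8% ± 2.96 after control shRNA (SD, n = 2 each), a difference of -24.4 points, with an exact permutation p of 0.333, the smallest that 2 against 2 libraries allow. With lists cut to the 1793 best peaks the difference was -3.17 points, and with a score of at least 100 it was -15.3 points. Over all candidates the means were 3.49% ± 4.35 after c-Fos shRNA and 34.4% ± 1.62 after control shRNA, so the drop was not particular to the members. At least 1 of the 2 c-Fos shRNA libraries covered 238 members (8.58%), against 6.69% of candidates, and both covered 11 (0.397%), against 0.287%.

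FosB covered 598 members (21.6%) in sample 5 and 366 (13.2%) in sample 6 after FosB shRNA, against 1070 (38.6%) and 552 (19.9%) after control shRNA. The groups overlapped, since sample 5 after FosB shRNA lay above sample 6 after control shRNA, although within each culture the FosB shRNA library was the lower. The means were 17.4% ± 5.91 and 29.2% ± 13.2, a difference of -11.9 points (exact permutation p = 0.667). Without biological sample 5 the difference was -6.71 points, and with a score of at least 100 it was -7.25 points. It was -7.52 points for peak centres within 200 bp and -0.342 points with lists cut to the 7180 best peaks. Over all candidates the means were 17.2% ± 4.73 after FosB shRNA and 33.2% ± 11.6 after control shRNA. Of the members with FosB under control shRNA, 46.2% in sample 5 and 42.9% in sample 6 kept it under FosB shRNA, against 41.6% and 39.8% over all candidates. Both FosB shRNA libraries covered 257 members (9.26%), against 9.35% of candidates.

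A small number of members carried AP-1 already in silenced neurons. At least 1 of 7 unstimulated libraries covered 171 members (6.16%), against 7.31% of candidates. At least 1 of 4 unstimulated c-Fos libraries covered 54 (1.95%, against 2.67%), 1 of 2 FosB libraries 94 (3.39%, against 3.30%), and the JunB library 90 (3.24%, against 5.14%). Of those 54 members, 39 were also in a KCl c-Fos list, where 51.7% of all members lay. A combined c-Fos site was within 500 bp of 11 of the 54, and of 20.2% of all members. Members of each unstimulated library were sought again in its KCl partner of the same culture and antibody. With sc52, 23 of 38 were found again in sample 3 and 6 of 16 in sample 4. With sc7202 it was 7 of 11 in sample 3, and sample 4 had no unstimulated member. FosB gave 1 of 5 in sample 3 and 35 of 91 in sample 4, and JunB gave 66 of 90. These shares were not counted over all candidates.

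The members with the most c-Fos after KCl were 5 sites found in all 6 c-Fos, all 4 FosB and the JunB library of KCl neurons, chosen by number of libraries and then by mean rank of the covering peak. They lay at chr4:134187560, chr6:52775740, chr5:71640025, chr2:5536155 and chr15:54974440, and an authors' combined c-Fos site was 4, 98, 1, 26 and 54 bp away. None of the 5 lay in an unstimulated c-Fos peak, but chr15:54974440 lay in an unstimulated JunB peak (rank 1419.5 of 3126). Each of the 5 was in 1 of the 2 c-Fos shRNA lists. The log2 width ratios of their H3K27ac peaks were all positive, at 0.30, 0.37, 0.04, 0.76 and 0.19, as were those of 52.6% of all members. That of chr2:5536155 (0.76) was above 0.45, the value that 10% of members reached or exceeded.

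At chr4:134187560 the holding H3K27ac peak was 4026 bp wide after KCl (chr4:134185889-134189914, score 1424.22) and 3275 bp without stimulation (chr4:134186458-134189732, score 863.05). The sc52 c-Fos peak of biological sample 3 spanned chr4:134187111-134188017 and ranked 106 of 22368 by score, and that of sample 4 ranked 215 of 6808. With sc7202 the ranks were 34 of 28885 and 27 of 16270, and for JunB 58 of 19346. In sample 5 the c-Fos peak ranked 1058 of 7808 after c-Fos shRNA and 205 of 23578 after control shRNA, while sample 6 had no c-Fos peak there after c-Fos shRNA and a peak ranked 105 of 19131 after control shRNA.

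At chr2:5536155 the H3K27ac peak was 3059 bp wide after KCl (chr2:5534125-5537183, score 268.75) and 1807 bp without stimulation (chr2:5534395-5536201, score 141.49). The sc7202 c-Fos peak of sample 4 ranked 17 of 16270, and the JunB peak of that culture ranked 56 of 19346. After c-Fos shRNA in sample 5 the c-Fos peak ranked 2000 of 7808, against 217 of 23578 after control shRNA. The H3K27ac peaks at this site ranked 15257 of 29418 after KCl and 20290 of 30239 without stimulation.

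The 5 members named for the strongest H3K27ac peaks ranged from 0 to 5 of the 6 KCl c-Fos lists. These were chr11:32058130, chr3:121403340, chr7:125737550, chr11:88400025 and chr4:154609590, with scores of at least 3100 in both conditions, a value that many of the top peaks share. They lay in 5, 1, 1, 2 and 0 of the 6 KCl c-Fos lists. Of all members, 48.3% lay in none of these lists, 12.1% in 1 and 8.80% in 2. Mean KCl c-Fos coverage was 27.5% in the strongest tercile by H3K27ac rank, against 28.8% over all members. Of these 5, chr4:154609590 is also the first of 3 members named as the best ranked by H3K27ac with no AP-1 peak in any of the 22 libraries. The others are chr10:86952570 and chr12:50472770. Both were tied in rank with at least chr8:113240145, which also lay in no AP-1 peak, so they are not better ranked than it. The H3K27ac peak at chr12:50472770 was 34858 bp wide after KCl (chr12:50471770-50506627) and 35176 bp without stimulation (chr12:50471347-50506522), the widest at any member, and a combined c-Fos site lay 876 bp from the member.

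At the ends of the width ratio, the named single members did not follow the trend of the terciles, although the highest decile had a mean c-Fos coverage of 41.3%. Of all members, 48.3% lay in none of the 6 KCl c-Fos lists and 8.94% in all 6. Taking 1 member per KCl peak, that nearest its middle, the 3 largest gains (the largest log2 ratio at any member was 2.48) were at chr6:31171730 (log2 2.00, 7572 bp after KCl and 1889 bp without stimulation), chr19:10859640 (1.81) and chr8:113240145 (1.76), and these lay in 0, 1 and 0 KCl c-Fos lists. The 3 largest losses were at chr9:113081255 (-2.37, 2275 bp after KCl and 11778 bp without stimulation), chr13:34228580 (-2.37) and chr4:84902455 (-2.08), and these lay in 6, 0 and 6 KCl c-Fos lists. At chr9:113081255 and chr4:84902455 a combined c-Fos site was 66 and 172 bp away.

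The members with the most AP-1 in silenced neurons were of different kinds after KCl. At chr3:83016730 c-Fos was found in all 6 KCl lists, in both c-Fos shRNA lists and in 2 of 4 unstimulated lists. Its sc52 peak in sample 3 ranked 1442 of 22368 after KCl and 1581 of 3669 without stimulation, and JunB ranked 234 of 19346 after KCl and 150 of 3126 without stimulation. At chr10:93592605, also in all 6 KCl and 2 unstimulated c-Fos lists, the JunB peak ranked 97 of 19346 after KCl and 250 of 3126 without stimulation. By contrast chr12:109190685 lay in no KCl c-Fos list although it was in 2 unstimulated c-Fos, both unstimulated FosB and the unstimulated JunB lists. Its sc52 peaks ranked 2009 of 3669 in sample 3 and 1886 of 1891 in sample 4, both without stimulation. The remaining pair, chr2:179530480 and chr1:91446945, lay in 0 and 2 of the KCl c-Fos lists and in 2 unstimulated c-Fos lists each.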

How the data were processed

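Peak lists and site lists were used as deposited. Per the submitters' processing notes, BWA (no version given) aligned the reads to mm9. Peaks carry names that begin with MACS, per the deposited files, and the authors gave each peak a score on the MACS scale, with no score under 50. Each AP-1 list comes from 1 library, and the H3K27ac lists merge biological samples 1 and 2, per the labels. Site lists hold positions without width, and the sources used here do not say how the authors made the classes and the combined c-Fos list.

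The members and the compared sets were chosen with earlier results of these data known. A site was covered when it lay inside a peak, and coverage was the percent of sites covered in a library. H3K27ac chose the members, so no difference in H3K27ac was tested. Its width ratio and score served to split the sites whose AP-1 coverage was compared. c-Fos, FosB and JunB were mapped in other cultures. Conditions were compared with exact two-sided permutation tests of library labels, and sets or terciles with exact two-sided sign-flip permutation tests of the differences within libraries (Benjamini-Hochberg over the 4 set comparisons, the tercile comparison alone). Nothing in the labels says that libraries of 1 biological sample came from separate dishes, so p-values measure the spread between these libraries. The labels give libraries of both conditions the same biological sample, which makes them pairs. Coverage of the members was higher in sample 3 than in 4 for 5 of 6 groups, and in 5 than in 6 for all 4 groups.

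Named members were, by rule, the 5 in most KCl c-Fos lists, the 5 in the best ranked H3K27ac peaks, the 3 largest gains and 3 largest losses of H3K27ac width, the 5 in most unstimulated AP-1 lists, and the 3 best ranked by H3K27ac with no AP-1 peak. Some of the last 3 shared their H3K27ac rank with members not named under this rule. Peak starts are given 1-based, and site positions as deposited. The alternatives were a score of at least 100, peak centres within 200 bp or peaks within 500 bp, lists of equal length, H3K27ac scores of at least 100, distal lists, 1 site per KCl peak, autosomes, the replicate block, averages per culture, sc52 alone, FosB in place of c-Fos, the combined c-Fos list, other splits by H3K27ac change, and each biological sample left out. Comparisons within terciles of KCl score and the added control shRNA FosB libraries were chosen after seeing the data. Sequence features were planned but not analysed here, since no mm9 genome was used. Counting and tests were checked on simulated data. Python 3.11.15, numpy 2.4.6, scipy 1.17.1 and matplotlib 3.10.9 were used.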

Additional observations from a re-analysis of the deposited data

Results flagged for a closer look

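Among 13 groups of libraries examined, 2 held a value far from the others, and chance alone flags about 1 group in 20. Both came from the same KCl library, c-Fos with sc52 in biological sample 4, whose list of 6808 peaks was the shortest of the 6. There the members exceeded the constant enhancers in c-Fos coverage by 1.64 percentage points, against 4.12 to 5.31 points in the other 5 libraries. They exceeded the decreasing enhancers in both lists by 3.18 points, against 8.21 to 10.6 points. Without biological sample 4 the mean differences were 4.98 and 9.61 points. With all 6 lists cut to 6808 peaks, the mean differences over the 6 libraries were 2.92 points from constant and 5.84 points from decreasing enhancers, against 4.28 and 8.31 points with full lists.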

How the results depend on the processing

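All 138 alternative values kept the direction of the result they belong to, and 95 were counted as unchanged. Unchanged meant the same side of the threshold, for JunB its counting interval, and for the combined c-Fos list the SD over libraries. FosB and both knockdowns, with 2 against 2 libraries, could not pass the threshold, so their unchanged calls carry no information. They include differences that shrank from -24.4 to -3.17 points (c-Fos shRNA) and from -11.9 to -0.342 points (FosB shRNA) in lists of equal length. They also include values from 1 library per group, which had no test. The replicate block, within pairs of the same biological sample and antibody, left c-Fos KCl minus unstimulated at 28.2 points with an exact p of 0.125, and changed no other call. The c-Fos pairs come from 2 cultures, each with both antibodies, so this p-value counts libraries and not cultures. With libraries averaged per culture the differences were 4.47 (constant), -24.2 (increasing), 8.80 (decreasing), -6.27 (outside H3K27ac) and 16.4 points (upper minus lower tercile). With sc52 alone they were 4.07, -22.6, 8.35, -5.69 and 15.7 points, and with FosB in place of c-Fos 2.53, -15.0, 4.22, -3.95 and 8.93 points. These 15 tests on 4 units cannot go below 0.125, so the lost call follows from the number of units. With the combined c-Fos list the differences were -18.0 points from increasing sites and -8.99 points from sites outside H3K27ac. The JunB difference was 16.1 points at a score of at least 100, 28.8 points for peak centres within 200 bp and 5.59 points for the 3126 best peaks, and the cause was not tested.

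Leaving out each biological sample gave 19.7 to 36.7 points for c-Fos KCl minus unstimulated, 5.59 to 11.9 for FosB, -26.1 to -22.6 for c-Fos shRNA and -17.0 to -6.71 for FosB shRNA. It gave 3.95 to 4.98, -24.9 to -23.4, 7.84 to 9.61 and -6.61 to -5.21 points for the members against constant, increasing, decreasing and outside sites, and 15.1 to 16.4 for the terciles, with too few libraries to pass 0.05. JunB, with 1 library per condition, has no such value. Depth is unknown, so a member without a peak was not detected at that list's length, and is not shown to lack the protein.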
